A study of Mus musculus with 16 samples.

Results

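Glucocorticoid-responsive genes were followed here in the whole brain of mice exposed to lipopolysaccharide (LPS, bacterial endotoxin) before birth, in puberty, at both times or at neither. The set held 10 genes, taken by name, of the 49671 gene identifiers counted: the receptor genes Nr3c1 and Nr3c2, and 8 genes whose transcription glucocorticoids are known to raise in brain or other tissues (Tsc22d3, Fkbp5, Sgk1, Zbtb16, Cdkn1a, Plin4, Sult1a1 and Errfi1). All 10 were among the 18875 genes with enough counts to be tested. The 16 C57BL/6 mice, 1 library each and 4 in each of 4 groups, were described as male offspring and had their brains collected at postnatal day 32. LPS-LPS mice had a dam injected intraperitoneally with LPS on gestation day 16 and were themselves injected with LPS on postnatal day 30. LPS-saline mice received LPS only through the dam's injection, saline-LPS mice only through their own, and saline-saline mice had saline on both days. The group names were read with the dam's injection first, which the labels do not spell out; in the reverse reading prenatal and pubertal would swap. Litters are not given, so mice of a group may share a dam, and each p-value reflects only the spread among these 16 animals. A whole-brain level is a mixture over cell types, in which fewer cells of a type and less RNA per cell cannot be told apart.

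Corticosterone, the main glucocorticoid of the mouse, binds the mineralocorticoid receptor encoded by Nr3c2 with high affinity and the glucocorticoid receptor encoded by Nr3c1 with lower affinity. Both are held by heat shock proteins in the cytoplasm until hormone binds, then move to the nucleus and bind a palindromic element on DNA. In the brain Nr3c1 is widely expressed in neurons and glia, Nr3c2 is highest in hippocampal neurons, and Tsc22d3, Fkbp5 and Sgk1 are among the transcripts most often used to read glucocorticoid exposure.

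Libraries held 25729919 to 38571036 gene counts, so that 1 count was worth at most 0.0389 CPM (counts scaled to a common library size). Summed markers of neurons (5740 to 6101 CPM in LPS-LPS, 5782 to 6040 in LPS-saline, 5304 to 6125 in saline-LPS and 5503 to 6034 in saline-saline) were present in every library, as were those of astrocytes, oligodendrocytes and microglia, with no defining marker of these 4 lists at 0. Gabra6, a GABA receptor subunit largely restricted to cerebellar granule cells, was under 1 CPM in 8 libraries. The other 8 had 2.51 to 70.4 CPM. Those under 1 CPM were LPS-LPS replicate 2, LPS-saline replicates 1 and 2, saline-LPS replicates 1 and 2, and saline-saline replicates 1, 2 and 3. Within a class, fits thus held 1 LPS-LPS library (under 1 CPM) or 1 saline-saline library (1 CPM or more). The library labelled LPS-LPS replicate 3 held 503 CPM of Xist, which silences an X chromosome in females, and 0 CPM of the Y-linked Ddx3y, against its label as male. Gh, the pituitary growth hormone, was at 502.5 CPM in LPS-LPS replicate 1, 44.1 CPM in saline-LPS replicate 1 and at most 2.58 CPM elsewhere. Calls among the 10 genes and in the pathway lists are also given without these 3 libraries. CPM values were scaled by TMM, and fold changes are log2 of LPS over saline with their standard errors. Differences were tested with the quasi-likelihood method of edgeR, and p-values were adjusted over all 18875 genes after Benjamini and Hochberg. A gene was called at an adjusted p under 0.05.

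The DNA element of the receptor is an inverted repeat of the hexamer TGTTCT. Shown is 1 promoter window each of Tsc22d3 and of Sgk1, the member of the 10 whose RNA level was most like that of Tsc22d3. In the Tsc22d3 window only the hexamer matched. RefSeq promoter windows (GRCm38.p6, 250 bases before to 50 after an annotated start) were found for 8 of the 10 genes, 17 windows in all, of which 6 belonged to Sgk1 and 3 to Tsc22d3. The full palindrome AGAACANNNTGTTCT, searched on both strands, was in 3 of 32851 windows of all genes (0.00913%), and 1 of these was an Sgk1 window. The shorter AGAACANNNTGT was in 0.414% of all windows and, among the 17, in that same Sgk1 window. The hexamer TGTTCT alone, which the longer motifs contain, was in 19.0% of all windows and in 5 of the 17, which belonged to Sgk1, Sult1a1 and Tsc22d3. Both windows are written 5′ to 3′ on the strand of the gene, with every match in capitals. In Sgk1 the palindrome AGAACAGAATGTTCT begins 189 bases before the start, and in Tsc22d3 the hexamer begins 185 bases before it.
Sgk1, chr10:21993640-21993939, plus strand: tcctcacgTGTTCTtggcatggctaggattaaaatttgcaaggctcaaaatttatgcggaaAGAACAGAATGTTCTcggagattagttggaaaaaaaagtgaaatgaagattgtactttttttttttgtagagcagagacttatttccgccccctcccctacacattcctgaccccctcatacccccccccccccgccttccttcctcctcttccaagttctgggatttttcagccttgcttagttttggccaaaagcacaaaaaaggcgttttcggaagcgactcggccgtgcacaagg
Tsc22d3, chrX:140600473-140600772, minus strand: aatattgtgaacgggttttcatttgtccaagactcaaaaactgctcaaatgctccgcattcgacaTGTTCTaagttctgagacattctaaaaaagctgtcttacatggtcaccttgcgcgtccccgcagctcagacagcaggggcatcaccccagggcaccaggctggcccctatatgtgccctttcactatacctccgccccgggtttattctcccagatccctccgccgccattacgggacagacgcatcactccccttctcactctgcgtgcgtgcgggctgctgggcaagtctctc
A match is a description of the letters in the window. Binding was not measured.

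Per kilobase of exon, Tsc22d3 and Sgk1 had the highest RNA levels of the 10 genes. Means over the 16 libraries were 18.7 ± 2.70 CPM per kilobase (SD) for Tsc22d3 and 16.7 ± 4.51 for Sgk1, and Tsc22d3 was above Sgk1 in 13 of 16 libraries, so that these neighbours overlapped. Nr3c1 followed at 11.3 ± 0.663, below Sgk1 in 16 of 16 libraries. Errfi1 (9.27 ± 1.06) and Cdkn1a (8.64 ± 0.949) could not be ordered, with Errfi1 above in 9 of 16 libraries. Zbtb16 was at 6.85 ± 1.80 CPM per kilobase. Nr3c2 (5.39 ± 0.666) was above Sult1a1 (5.16 ± 1.02) in 10 of 16 libraries, and Fkbp5 stood at 4.02 ± 0.640. Plin4, which coats lipid droplets, was lowest at 0.396 ± 0.140 CPM per kilobase, with 35 to 134 counts per library. The genes also differed in how much they varied between mice. The coefficient of variation of CPM over the 16 libraries was 5.86% for Nr3c1, 19.8% for Sult1a1, 26.2% for Zbtb16, 27.1% for Sgk1 and 35.4% for Plin4.

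**Figure D1:**
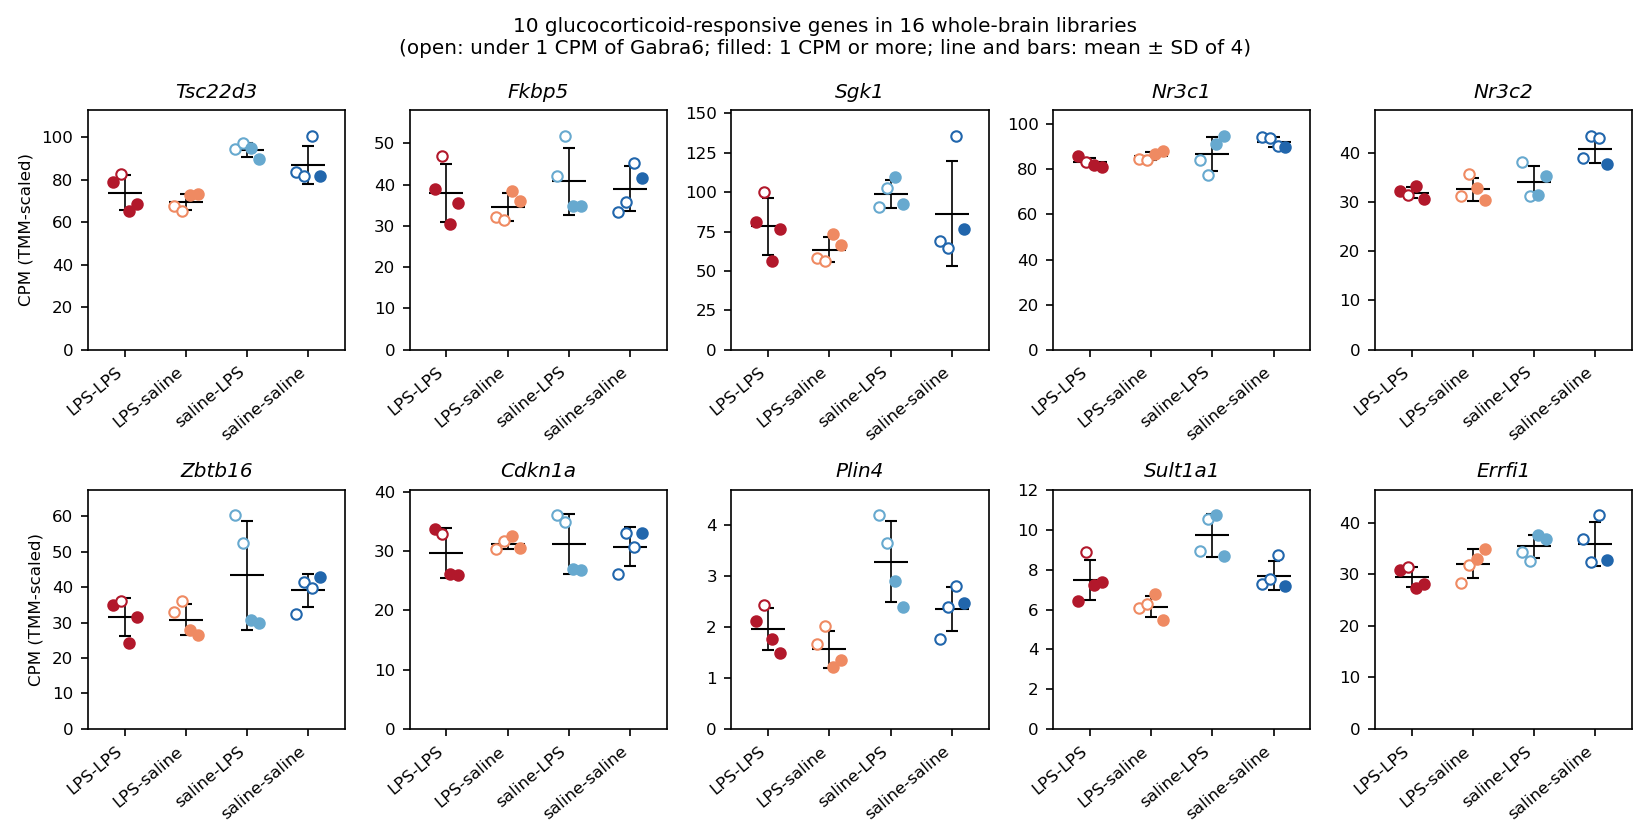
Level of each of the 10 genes in every library, in CPM, by group. Lines and bars are mean ± SD of 4 mice, open symbols are libraries under 1 CPM of Gabra6 and filled symbols the others. Tsc22d3 lies at 65.1 to 82.5 CPM in the 8 mice with prenatal LPS and at 81.6 to 100.5 CPM in the 8 with prenatal saline.

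In brains of mice exposed to LPS before birth, 5 of the 10 genes were called lower. Averaged over the pubertal injection, Tsc22d3, Nr3c2, Plin4, Sult1a1 and Errfi1 fell, and none of the 10 rose. Plin4 fell most, by 0.66 on the log2 scale, while the falls of the other 4 were between 0.21 and 0.35. All 10 fold changes were negative, as were those of 51.7% of all genes tested, and the median was -0.27 against -0.0054 over all genes. The 10 genes were chosen with earlier results of these data known, and several varied together between mice. Their signs, here and below, are therefore not 10 separate observations. Cdkn1a, close to 0, turned positive under 6 alternatives, by at most 0.017. Of all genes, 7.82% were called, 4.9% higher and 2.92% lower. The values of 8 mice with prenatal LPS and 8 with prenatal saline overlapped for each of the 10 genes, and 0.906% of all genes had groups that did not overlap, 0.159% with prenatal LPS lower. DESeq2 called the same number, 5, and 3 to 5 were called when 1 library was left out. Without LPS-LPS replicates 1 and 3 and saline-LPS replicate 1 together, Tsc22d3 alone was called.

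Nr3c2, the mineralocorticoid receptor gene (chromosome 8, 76899442 to 77245012), was lower after prenatal LPS on average over the pubertal injection. It was at 32.4, 31.5, 33.2 and 30.7 CPM in LPS-LPS mice, 31.3, 35.7, 33.0 and 30.6 CPM in LPS-saline mice, 38.3, 31.2, 31.5 and 35.4 CPM in saline-LPS mice and 38.9, 43.5, 43.2 and 37.8 CPM in saline-saline mice. The 4 saline-saline mice were above all 8 mice with prenatal LPS, and the saline-LPS mice lay across both. This grouping was not among the comparisons tested, and the share of all genes that separate in this way is not given. The log2 fold change of prenatal LPS was -0.32 ± 0.07 in mice given saline in puberty (adjusted p = 0.0640). In mice given LPS in puberty it was -0.09 ± 0.07 (adjusted p = 0.606). Neither was called. Means were 32.3 ± 1.70 CPM with prenatal LPS and 37.5 ± 4.64 CPM with prenatal saline (SD, n = 8 each), and the averaged log2 fold change was -0.21 ± 0.05 (adjusted p = 0.0195). The call was lost with a correction for GC content and exonic length (-0.15, adjusted p = 0.0722) and without LPS-saline replicate 1 (-0.20, adjusted p = 0.0501). It was also lost in both classes of libraries taken alone, those at 1 CPM or more of Gabra6 (-0.15, adjusted p = 0.178) and those under 1 CPM (-0.24, adjusted p = 0.301). Spearman's correlation, across genes, between the deviation of a library from the mean and exonic length was -0.369 to -0.0453 in the libraries with prenatal LPS and -0.0493 to 0.327 in those with prenatal saline. Beyond that correction, the part of this trend in the result was not tested. In GENCODE M21, 3 other gene models overlap Nr3c2, 2 of them on the opposite strand.

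Nr3c1, the glucocorticoid receptor gene (chromosome 18, 39410545 to 39519421), was the steadiest of the 10. It was at 86.0, 83.4, 81.9 and 81.2 CPM in LPS-LPS, 84.5, 84.1, 86.8 and 88.1 CPM in LPS-saline mice, 84.0, 77.6, 91.1 and 94.9 CPM in saline-LPS and 94.4, 93.9, 90.3 and 90.2 CPM in saline-saline. The saline-saline mice were above the 8 mice with prenatal LPS, but saline-LPS spanned the whole range. As for Nr3c2, the share of all genes that separate in this way is not given. The averaged prenatal log2 fold change was -0.08 ± 0.04 (95% interval -0.17 to -0.00, adjusted p = 0.214). Per kilobase, the ratio of Nr3c2 to Nr3c1 RNA was 0.456 ± 0.0170 in LPS-LPS, 0.452 ± 0.0385 in LPS-saline, 0.468 ± 0.0556 in saline-LPS and 0.526 ± 0.0383 in saline-saline (SD, n = 4 each). This ratio was not tested and is given as a description.

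Tsc22d3 encodes GILZ, a leucine zipper protein that restrains NF-kappaB and AP-1 (chromosome X, 140539528 to 140600659, minus strand). It was at 79.0, 82.5, 65.1 and 68.7 CPM in LPS-LPS, 67.6, 65.4, 72.5 and 73.1 CPM in LPS-saline mice, 94.6, 97.0, 94.96 and 89.5 CPM in saline-LPS and 83.5, 81.6, 100.5 and 81.8 CPM in saline-saline. Of the 8 mice with prenatal LPS, only LPS-LPS replicate 2 lay inside the range of the 8 with prenatal saline. Means were 71.7 ± 6.35 CPM with prenatal LPS and 90.4 ± 7.41 CPM with prenatal saline (SD, n = 8 each). The averaged log2 fold change was -0.33 ± 0.05 (adjusted p = 0.00171), and the call held without each of the 16 libraries in turn and without LPS-LPS replicates 1 and 3 and saline-LPS replicate 1 together (-0.31, adjusted p = 0.0187). Among the 8 libraries at 1 CPM or more of Gabra6 the value was -0.27 (adjusted p = 0.0220), and among the 8 under 1 CPM it was -0.32 (adjusted p = 0.197).

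Sult1a1, a phenol sulfotransferase (chromosome 7, 126672865 to 126676432), was at 6.44, 8.89, 7.24 and 7.41 CPM in LPS-LPS, 6.07, 6.27, 6.80 and 5.49 CPM in LPS-saline mice, 8.97, 10.6, 10.8 and 8.68 CPM in saline-LPS and 7.29, 7.55, 8.76 and 7.20 CPM in saline-saline. On average mice with prenatal LPS were lower at either pubertal injection, with LPS-saline lowest and saline-LPS highest of the 4 groups. Means were 6.83 ± 1.04 CPM with prenatal LPS and 8.72 ± 1.38 CPM with prenatal saline (SD, n = 8 each), with a log2 fold change of -0.35 ± 0.08 (adjusted p = 0.0113). The call was lost among the libraries at 1 CPM or more of Gabra6 (-0.34, adjusted p = 0.102) and among those under 1 CPM (-0.25, adjusted p = 0.404). Its annotated span overlaps Sgf29 on the opposite strand, and without a stated strand setting reads of the overlap cannot be told apart.

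Plin4 (chromosome 17, 56100591 to 56109803), the lipid droplet protein, was at 2.13, 2.44, 1.77 and 1.49 CPM in LPS-LPS, 1.66, 2.02, 1.21 and 1.35 CPM in LPS-saline mice, 4.19, 3.64, 2.89 and 2.39 CPM in saline-LPS and 1.76, 2.39, 2.80 and 2.47 CPM in saline-saline. Counts summed to 242, 205, 398 and 324 in these 4 groups. The 4 saline-LPS mice included the highest 3 values, and LPS-saline the lowest 2. Means were 1.76 ± 0.416 CPM with prenatal LPS and 2.82 ± 0.771 CPM with prenatal saline (SD, n = 8 each), with a log2 fold change of -0.66 ± 0.15 (adjusted p = 0.0103). Among the libraries at 1 CPM or more of Gabra6 it was -0.75 (adjusted p = 0.0333), and among those under 1 CPM it was -0.51, where the call was lost (adjusted p = 0.318). Plin4 overlaps Hdgfl2 on the opposite strand, with the same limit.

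Errfi1, a feedback inhibitor of the EGF receptor (chromosome 4, 150853919 to 150868892), was at 31.0, 31.4, 27.4 and 28.2 CPM in LPS-LPS, 28.3, 31.9, 33.0 and 35.0 CPM in LPS-saline mice, 34.4, 32.7, 37.7 and 36.9 CPM in saline-LPS and 36.9, 32.4, 41.5 and 32.8 CPM in saline-saline. LPS-LPS mice were below every mouse with prenatal saline, and LPS-saline mice overlapped with mice given prenatal saline. The share of all genes that separate in this way is not given. In GENCODE M21, 1 other gene model overlaps Errfi1 on the opposite strand, with the limit given for Sult1a1. Means were 30.8 ± 2.64 CPM with prenatal LPS and 35.7 ± 3.17 CPM with prenatal saline (SD, n = 8 each), and the log2 fold change was -0.22 ± 0.06 (adjusted p = 0.0287). This call was lost without LPS-LPS replicate 3 (-0.20, adjusted p = 0.0697) or 4 (0.0593), LPS-saline replicate 1 (0.0736) or 2 (0.0502), or saline-saline replicate 3 (0.0519). It was lost as well among the libraries at 1 CPM or more of Gabra6 (-0.16, adjusted p = 0.152) and those under 1 CPM (-0.20, adjusted p = 0.381). Without LPS-LPS replicates 1 and 3 and saline-LPS replicate 1 together, Tsc22d3 was the single gene of the 10 called, and the adjusted p was 0.0921 for Nr3c2, 0.0939 for Plin4, 0.0907 for Sult1a1 and 0.132 for Errfi1.

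The other 4 target genes did not pass the test. Sgk1, a kinase that regulates ion channels and transporters (chromosome 10, 21882184 to 21999903), was at 81.1, 100.1, 56.1 and 76.3 CPM in LPS-LPS, 58.1, 56.2, 73.4 and 66.5 CPM in LPS-saline mice, 90.6, 102.5, 109.4 and 92.7 CPM in saline-LPS and 68.7, 64.2, 135.7 and 76.5 CPM in saline-saline. A single mouse, saline-saline replicate 3, held the highest value, and 3 of its group lay within the range of the mice with prenatal LPS. The averaged log2 fold change was -0.39 ± 0.16 (95% interval -0.73 to -0.04, adjusted p = 0.162), and it was -0.24 without that mouse.

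Fkbp5, the co-chaperone that lowers the receptor's affinity for hormone (chromosome 17, 28399094 to 28517527), was at 38.9, 47.0, 30.4 and 35.4 CPM in LPS-LPS, 32.0, 31.4, 38.5 and 36.0 CPM in LPS-saline mice, 42.0, 51.8, 34.8 and 34.7 CPM in saline-LPS and 33.3, 35.7, 45.3 and 41.6 CPM in saline-saline. The 4 groups overlapped throughout, and the averaged log2 fold change was -0.14 ± 0.10 (95% interval -0.36 to 0.07, adjusted p = 0.448). In GENCODE M21, 4 other genes lie over its span, 2 of them on the opposite strand.

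Zbtb16, a zinc finger transcription factor (chromosome 9, 48654297 to 48836222), was at 34.9, 36.0, 24.2 and 31.5 CPM in LPS-LPS, 32.9, 36.1, 27.8 and 26.5 CPM in LPS-saline mice, 60.3, 52.3, 30.8 and 29.9 CPM in saline-LPS and 32.3, 41.3, 39.7 and 42.9 CPM in saline-saline. The saline-LPS mice split, and the 2 high values were those of the libraries under 1 CPM of Gabra6. Over all groups Zbtb16 averaged 41.4 ± 9.93 CPM in the 8 libraries under 1 CPM of Gabra6 and 31.1 ± 5.80 CPM in the other 8. The averaged prenatal log2 fold change was -0.39 ± 0.15 (95% interval -0.72 to -0.07, adjusted p = 0.133).

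Cdkn1a, the cell cycle inhibitor p21 (chromosome 17, 29090976 to 29100727), was at 33.7, 32.8, 26.2 and 25.9 CPM in LPS-LPS, 30.4, 31.6, 32.5 and 30.5 CPM in LPS-saline mice, 36.0, 34.9, 26.9 and 26.7 CPM in saline-LPS and 26.1, 33.1, 30.7 and 33.1 CPM in saline-saline. Saline-LPS split in the same way as for Zbtb16, with 36.0 and 34.9 CPM in the libraries under 1 CPM of Gabra6. The averaged log2 fold change was -0.02 ± 0.08 (95% interval -0.18 to 0.14, adjusted p = 0.903). In GENCODE M21, 1 other gene model overlaps Cdkn1a on the opposite strand, with the limit given for Sult1a1.

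**Figure D2:**
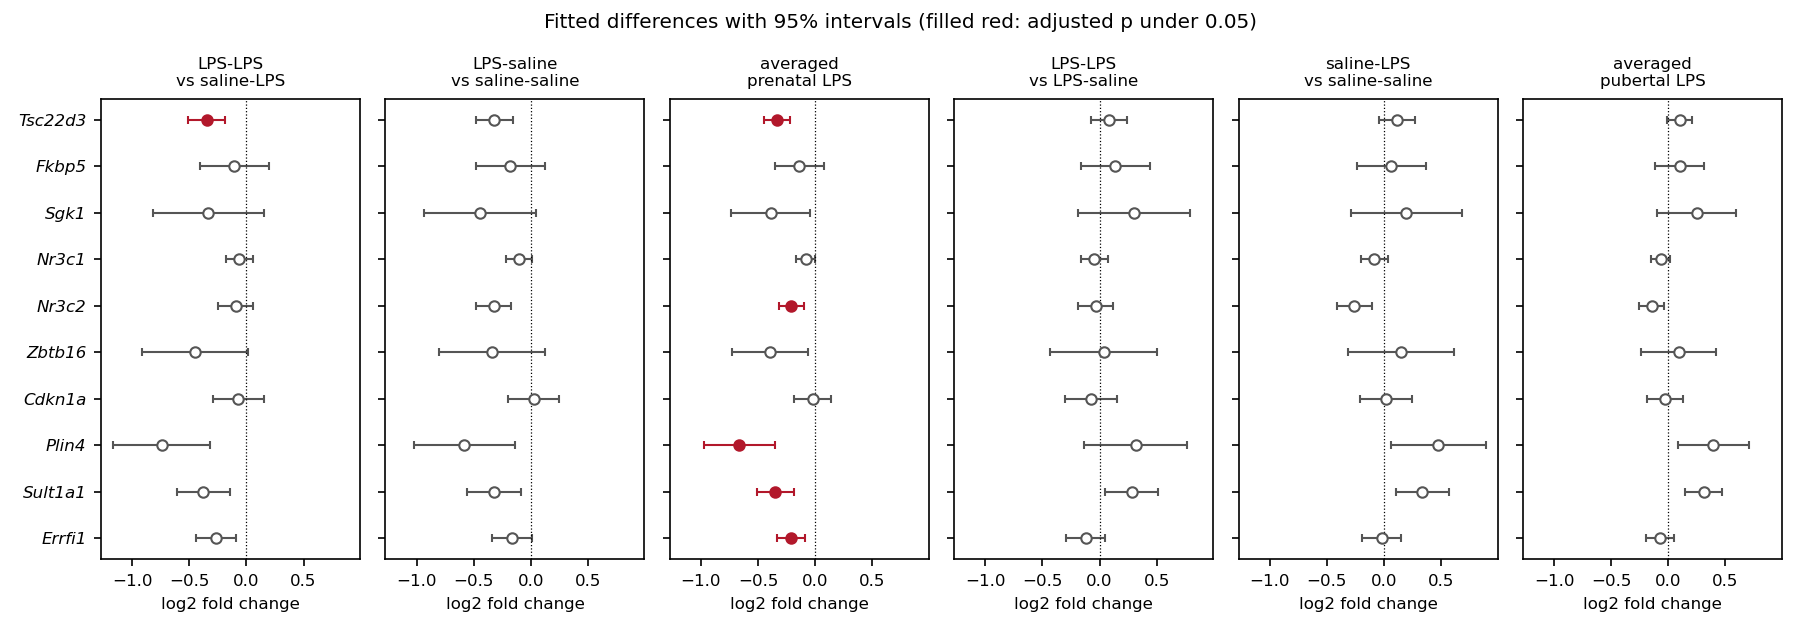
Log2 fold changes of the 10 genes with 95% intervals in 6 comparisons, 3 of prenatal LPS and 3 of pubertal LPS. Filled red points have an adjusted p under 0.05. In the averaged prenatal panel all 10 points lie below 0 and 5 are red; in the averaged pubertal panel none is red and 4 lie below 0.

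Prenatal LPS could also be compared at each pubertal injection alone. In mice that received LPS in puberty, LPS-LPS against saline-LPS, Tsc22d3 was the single gene of the 10 called (log2 -0.35 ± 0.08, adjusted p = 0.0394), where 0.609% of all genes were called, 0.562% higher and 0.0477% lower. Tsc22d3 and Errfi1 had groups that did not overlap, as did 7.94% of all genes in either direction and 2.98% in this one. All 10 fold changes were negative, with a median of -0.30 against -0.0071 over all genes. Uncalled signs turned for 4 of them under some alternatives. Of 28 alternatives, the sign was kept in 25 for Fkbp5 and for Nr3c1, 26 for Cdkn1a and 27 for Sgk1. Fkbp5 reached 0.030 without saline-LPS replicate 2 and also without the 3 doubtful libraries. Cdkn1a was at 0.0084 without saline-LPS replicate 1 and at 0.089 in the libraries at 1 CPM or more of Gabra6. Sgk1 (0.046) and Nr3c1 (0.040) turned in the libraries under 1 CPM, where LPS-LPS held 1 library. Nr3c1 and Fkbp5 also turned under alternatives not named here, by at most 0.040 for Nr3c1 and 0.030 for Fkbp5. Plin4 (-0.74 ± 0.21, adjusted p = 0.107), Sult1a1 (-0.38 ± 0.11, adjusted p = 0.129) and Errfi1 (-0.27 ± 0.08, adjusted p = 0.150) were not called. With the replicate number as a block, 3 of the 10 were called, Tsc22d3 (adjusted p = 0.0257), Plin4 (0.0447) and Sult1a1 (0.0458). With the block and the GC and length correction together, Sult1a1 alone was called (0.0435) and Tsc22d3 was not (-0.32, adjusted p = 0.0758). Without the block the call of Tsc22d3 was lost without any 1 of 10 libraries: LPS-LPS replicates 1, 3 and 4, LPS-saline replicates 1 and 3, saline-LPS replicates 1, 2 and 3, and saline-saline replicates 1 and 4, with adjusted p-values of 0.0501 to 0.185.

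In mice that received saline in puberty, LPS-saline against saline-saline, 0 of the 10 genes were called by edgeR, where 0.18% of all genes were (0.148% higher, 0.0318% lower). At an unadjusted p under 0.05 there were 4 of the 10 and 2497 of all genes, and DESeq2 called 2 of the 10. Tsc22d3 (-0.32 ± 0.08, adjusted p = 0.0663) and Nr3c2 (-0.32 ± 0.07, adjusted p = 0.0640) were the nearest to the threshold, and with the replicate block both were called (adjusted p = 0.0372 for Tsc22d3 and 0.0249 for Nr3c2). Both were also called without saline-LPS replicate 1, a library outside the comparison that shares the estimate of the spread (adjusted p = 0.0299 for Tsc22d3 and 0.0170 for Nr3c2). Tsc22d3, Nr3c2, Nr3c1 and Sult1a1 were lower in LPS-saline with no overlap between the groups, as were 3.95% of all genes, out of 9.12% without overlap in either direction. Cdkn1a was the exception in direction (0.03, adjusted p = 0.956). Both comparisons of prenatal LPS rest on separate mice. The difference between them, the interaction, gave 0 calls among the 10 genes and among all genes, with 402 genes at an unadjusted p under 0.05. Nr3c2 had the one interaction of the 10 below that level (0.23 ± 0.10, unadjusted p = 0.0402 from edgeR, adjusted p = 1.00).

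LPS at both times against saline at both times, LPS-LPS against saline-saline, gave 2 calls, both lower, where 6.56% of all genes were called, 4.27% higher and 2.29% lower. Nr3c2 was at 31.9 ± 1.11 CPM in LPS-LPS and 40.9 ± 2.91 CPM in saline-saline (SD, n = 4 each), a log2 fold change of -0.36 ± 0.07 (adjusted p = 0.00872), and its call held without each of the 16 libraries. Within either Gabra6 class, 1 of these groups held 1 library, so the call cannot be judged there. The fold change was -0.23 at 1 CPM or more and -0.42 under 1 CPM. Errfi1 was at 29.5 ± 1.99 CPM in LPS-LPS and 35.9 ± 4.25 CPM in saline-saline, with a log2 fold change of -0.29 ± 0.08 (adjusted p = 0.0422). That call was lost without LPS-LPS replicate 1, 3 or 4, LPS-saline replicate 3 or any of the 4 saline-saline libraries (adjusted p = 0.0508 to 0.144). Tsc22d3 (-0.23 ± 0.08, adjusted p = 0.0700) was not called. It was called in 4 of 28 alternatives, among them without LPS-LPS replicate 2 (0.0395) or saline-LPS replicate 1 (0.0490). Nr3c1 (-0.15 ± 0.06, adjusted p = 0.116) was not called either, but was in 2 of 28 alternatives. Nr3c1, Nr3c2 and Errfi1 had groups that did not overlap, as did 7.81% of all genes in that direction and 17.4% in either. The comparisons that involve saline-saline share those 4 mice.

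LPS in puberty, 2 days before collection, was followed by no called difference in the 10 genes. Averaged over the prenatal injection, edgeR and DESeq2 each called 0 of the 10, and edgeR called 0% of all genes, with 947 at an unadjusted p under 0.05. Sult1a1 had the smallest p of the 10, at rank 19 of 18875 genes. It averaged 8.62 ± 1.55 CPM with pubertal LPS and 6.93 ± 1.02 CPM with pubertal saline (SD, n = 8 each; log2 0.31 ± 0.08, adjusted p = 0.793). Plin4 averaged 2.62 ± 0.919 CPM with pubertal LPS and 1.96 ± 0.562 CPM with pubertal saline (0.40 ± 0.15, adjusted p = 0.924), and Nr3c2 had a log2 fold change of -0.15 ± 0.05 (adjusted p = 0.908). After prenatal saline, saline-LPS against saline-saline, 0% of all genes and 0 of the 10 were called by edgeR, and 535 genes and 3 of the 10 had an unadjusted p under 0.05: Nr3c2 (-0.26 ± 0.07), Plin4 (0.48 ± 0.20) and Sult1a1 (0.34 ± 0.11). After prenatal LPS, LPS-LPS against LPS-saline, again 0% and 0 of the 10 were called, with 756 genes at an unadjusted p under 0.05. Sult1a1 was at 7.50 ± 1.02 CPM in LPS-LPS and 6.16 ± 0.542 CPM in LPS-saline (SD, n = 4 each; log2 0.28 ± 0.11).

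Within groups, several of the genes were high or low in the same mice. LPS-LPS replicate 2 was the highest of its group for 7 of the 10 genes and saline-saline replicate 3 for 6, with Tsc22d3, Fkbp5, Sgk1, Plin4, Sult1a1 and Errfi1 in both. LPS-LPS replicate 3, the library that goes against its sex label, was the lowest of its group for 5, and saline-LPS replicate 4 for 6. LPS-LPS replicate 2 was also the only library of its group under 1 CPM of Gabra6. Shares over all genes are not given for these counts. Across all 16 libraries, the log-scale level of Sgk1 was the second most like that of Tsc22d3 among 15229 other genes with a mean of at least 1 CPM (Pearson r = 0.87, and 0.90 after group means were taken out). The 5 most like it were Adipor2 (r = 0.89), an adiponectin receptor, Sgk1, Nfkbia (0.86), the inhibitor of NF-kappaB, Smim3 (0.83), a small membrane protein, and Polr3e (0.83), a subunit of RNA polymerase III, with predicted genes left out. The 3 most unlike it were Spi1 (-0.91), a transcription factor of microglia and other myeloid cells, Plekho1 (-0.85) and Clec14a (-0.83), an endothelial surface protein. Of the other members, Sult1a1 (0.79), Plin4 (0.79) and Errfi1 (0.76) ranked 11, 13 and 30, and Fkbp5 (0.66) ranked 150. Zbtb16 (0.58), Nr3c2 (0.37), Nr3c1 (0.29) and Cdkn1a (0.25) were further off. With group means taken out, r with Tsc22d3 was 0.75 for Fkbp5 and 0.70 for Errfi1, against 0.44 for Sult1a1 and 0.36 for Plin4. In the same way it was 0.81 for Adipor2, 0.79 for Nfkbia, 0.68 for Polr3e and 0.59 for Smim3. For the most unlike genes it was -0.70 for Spi1, -0.56 for Plekho1 and -0.46 for Clec14a. These values describe 16 libraries that fall into 4 groups and differ in depth and in cerebellar and pituitary transcripts, and they carry no p-value.

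**Figure D3:**
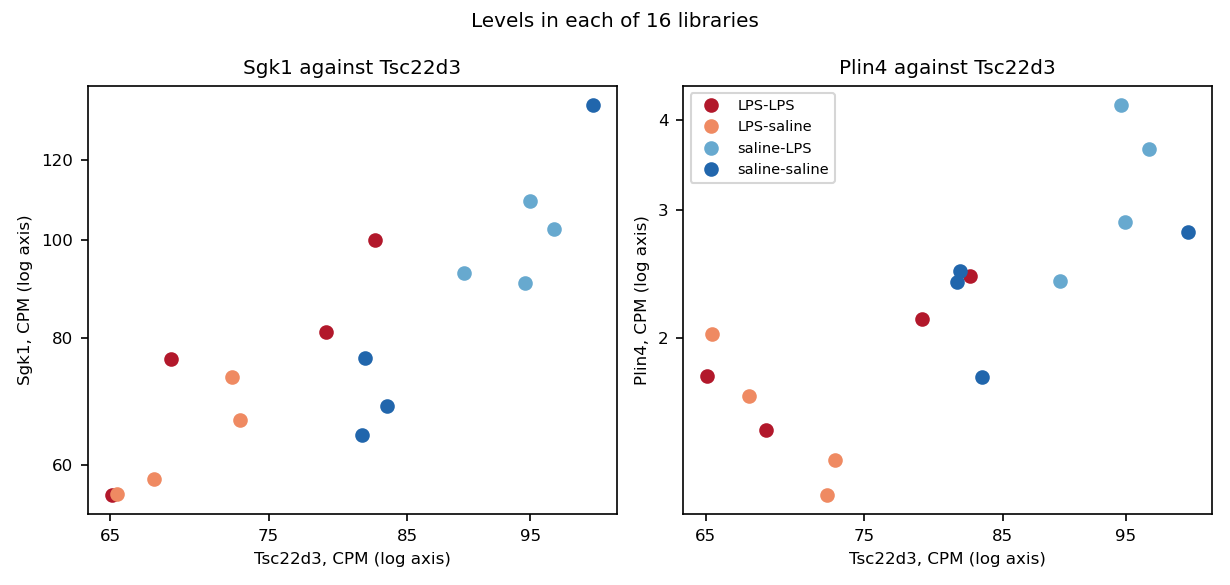
Levels of Sgk1 and Plin4 against Tsc22d3 in the 16 libraries, in CPM on log axes, with symbols for the 4 groups. Sgk1 follows Tsc22d3 within as well as between groups (r = 0.87), and Plin4 is more scattered (r = 0.79).

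The wider glucocorticoid pathway was described through 5 further lists, also chosen with earlier results of these data known. Of 24 other genes known as receptor targets, 23 were tested, and in the averaged prenatal comparison 4 fell and 0 rose, where 2.92% of all genes fell and 4.9% rose. Of the 23 fold changes 19 were negative, against 51.7% over all genes, with a median of -0.12 against -0.0054. Klf9, a Krüppel-like factor that glucocorticoids induce in neurons, averaged 165 ± 14.0 CPM with prenatal LPS and 195 ± 19.0 CPM with prenatal saline (SD, n = 8 each; log2 -0.24 ± 0.06, adjusted p = 0.0246). Hif3a, a hypoxia-inducible factor subunit, averaged 4.98 ± 0.949 CPM with prenatal LPS and 7.97 ± 2.32 CPM with prenatal saline (-0.68 ± 0.17, adjusted p = 0.0210). Cavin2, a caveolar coat protein, fell by 0.30 on the log2 scale (adjusted p = 0.0429). Pdk4, a kinase that inhibits pyruvate dehydrogenase, fell by 0.28 (adjusted p = 0.0470). In LPS-LPS against saline-saline, Mt1, a metallothionein that glucocorticoids and metals induce, was higher. It averaged 216 ± 13.5 CPM in LPS-LPS and 177 ± 7.48 CPM in saline-saline (SD, n = 4 each; 0.29 ± 0.07, adjusted p = 0.0184). That comparison differs in both injections; the Mt1 fold change was 0.06 for averaged prenatal LPS (adjusted p = 0.468) and 0.22 for averaged pubertal LPS (adjusted p = 0.618), neither called. Without the 3 doubtful libraries the Mt1 call held (0.29, adjusted p = 0.0407), and the calls of Klf9 (-0.21, adjusted p = 0.159), Hif3a (-0.60, 0.183), Cavin2 (-0.19, 0.330) and Pdk4 (-0.26, 0.188) were lost. With GC and length correction the Mt1 call was lost (0.16, adjusted p = 0.126). The calls of Klf9 (-0.21, 0.0815), Cavin2 (-0.30, 0.0959) and Pdk4 (-0.27, 0.111) were lost as well, and that of Hif3a held (-0.66, 0.0377). Of 27 alternatives, Hif3a was called in 22, Klf9 in 19, Cavin2 in 12 and Pdk4 in 10, and Mt1 in 22 of 28.

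Among the receptor's partners there were calls in both directions. Of 12 chaperones and co-chaperones, 2 rose in the averaged prenatal comparison, Bag1 (0.15 ± 0.04, adjusted p = 0.0243) and the ubiquitin ligase Stub1 (0.14 ± 0.04, adjusted p = 0.0292), 0 fell, and the median was 0.04 against -0.0054 over all genes, of which 4.9% rose and 2.92% fell. Of 10 coregulators 1 fell, Nrip1, a corepressor of nuclear receptors (-0.19 ± 0.05, adjusted p = 0.0249), and the median was -0.09. Without the 3 doubtful libraries these 3 calls were lost (adjusted p = 0.191 for Bag1, 0.165 for Stub1 and 0.260 for Nrip1). With GC and length correction they were lost as well, at 0.05 for Bag1, 0.02 for Stub1 and -0.09 for Nrip1. Among 8 tested genes of steroid metabolism and transport edgeR called 0; Hsd11b1, the enzyme that regenerates active glucocorticoid, had a log2 fold change of -0.30 ± 0.12 (adjusted p = 0.133). Among 9 tested peptides and receptors of the hypothalamic-pituitary-adrenal axis edgeR called 0, with Crh at 0.18 ± 0.07 (adjusted p = 0.108) and Avp at 0.51 ± 0.19 (adjusted p = 0.114). Pomc was at 188 CPM in LPS-LPS replicate 1, the library with most Gh, and at 3.01 to 9.97 CPM elsewhere. In the averaged pubertal comparison edgeR called 0 genes of all 5 lists.

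**Figure D4:**
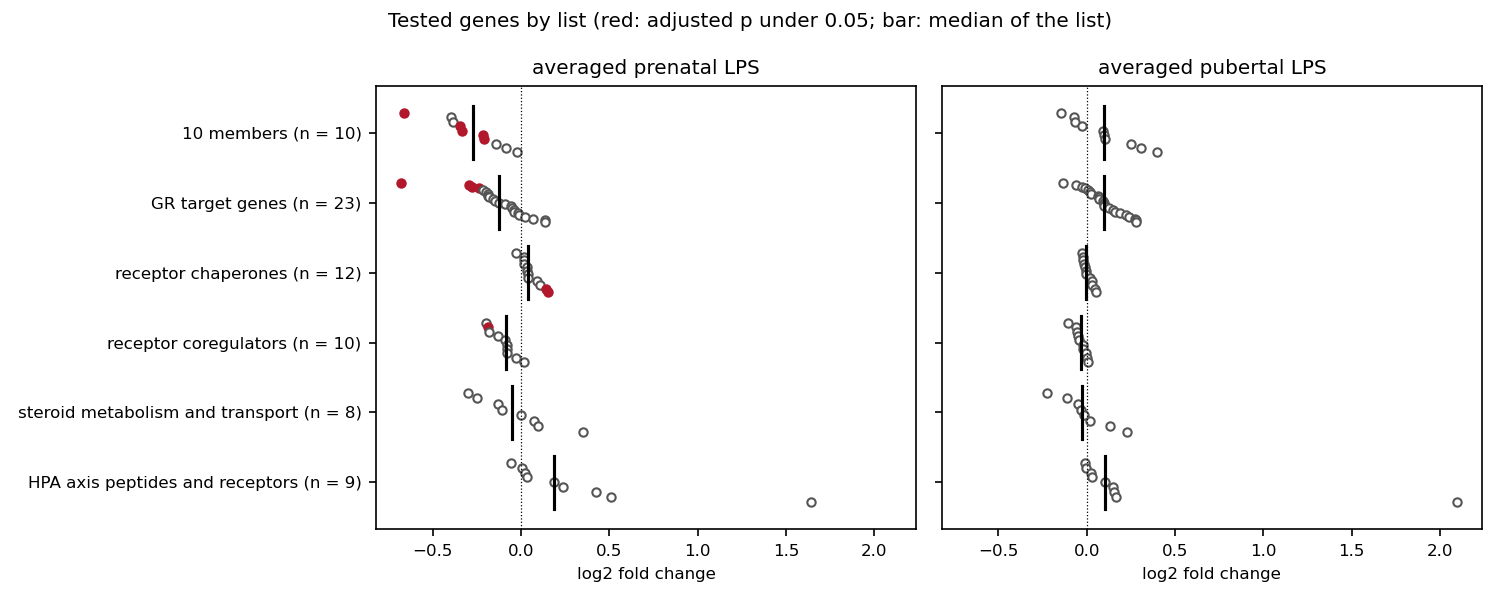
Log2 fold changes of the 10 genes and of the tested genes of 5 pathway lists, for averaged prenatal and averaged pubertal LPS, 1 point per gene. The 10 genes and 19 of 23 other receptor targets lie below 0 for prenatal LPS, and no list has a called gene for pubertal LPS.

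Markers of cell types were set beside these results. Summed astrocyte markers were at 3124 to 3379 CPM in LPS-LPS, 3068 to 3408 in LPS-saline, 3344 to 3984 in saline-LPS and 3168 to 3879 in saline-saline, over 6 genes with none at 0. Summed microglia markers were at 263 to 300, 235 to 304, 206 to 280 and 194 to 272 CPM in LPS-LPS, LPS-saline, saline-LPS and saline-saline, over 7 genes with none at 0. The highest astrocyte sums were thus in saline-LPS and saline-saline, where Tsc22d3, Nr3c2, Plin4, Sult1a1 and Errfi1 averaged higher. The highest microglia sums were in LPS-LPS and LPS-saline, although the ranges of the groups overlapped. By library the order differed. LPS-LPS replicate 2 (3124 CPM) and saline-saline replicate 3 (3168 CPM) had the lowest astrocyte sums of their groups, but the highest Tsc22d3, Plin4 and Sult1a1. In saline-LPS, replicate 1 had the highest astrocyte sum (3984 CPM) and the highest Plin4, but not the highest Tsc22d3 or Sult1a1. Endothelial markers, over 6 genes with none at 0, ran from 177 to 228 CPM in LPS-LPS, 194 to 260 in LPS-saline, 170 to 287 in saline-LPS and 189 to 291 in saline-saline. Their part in the results on the 10 genes was not tested.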

How the data were processed

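Whole-brain RNA of 16 mice was sequenced, 1 library per mouse. The deposited values are raw counts of reads by Ensembl identifier. Per the submitters' processing notes, the tools were STAR 2.5.2b and HTSeq 0.11.2 and the genome build was GRCm38. The sources used here do not give the annotation release, the strand setting or read filters, so reads of overlapping genes on opposite strands may be shared. The 5 special entries of each file were left out of library sizes. Of all counts, 8.37 to 11.0% had no feature, 5.11 to 5.48% were ambiguous and 3.18 to 3.90% were not unique. Symbols, coordinates and exonic lengths came from GENCODE M21 (GRCm38), which matched 49326 of 49671 identifiers. Levels per kilobase divide CPM by exonic length.

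Counts were tested with edgeR 4.0.16 in R 4.3.3: filterByExpr kept 18875 genes, libraries were scaled by TMM, and a robust quasi-likelihood model held all 4 groups, which shared 1 estimate of the spread (biological coefficient of variation 10.4%). There were 8 comparisons, and p-values are two-sided. Precision rests on 4 mice a group and on depths of 25729919 to 38571036 counts, and counts without molecular identifiers cover counting error only. The test was checked on simulated data with known changes.

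The 10 genes, the pathway and marker lists and the tests were chosen with earlier results of these data known. Named besides the 10 are up to 4 called genes with the smallest p per pathway list, and the 5 genes most like and 3 most unlike Tsc22d3, predicted genes left out. Mt1, Hsd11b1, Crh, Avp and Pomc were named outside this rule, after their values were seen. Alternatives were DESeq2 1.42.0, no filter, a replicate block, GC and length correction, both together, a cerebellar covariate, classes of Gabra6, fits of the compared groups alone and leaving out each library. Leaving out LPS-LPS replicates 1 and 3 and saline-LPS replicate 1 together, and all alternatives for the pathway genes, were chosen after seeing the data.

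Libraries carry replicate numbers in their titles. The departures of libraries with the same number from their group means, compared over 15230 genes, had correlations of 0.284 to 0.367 for LPS-LPS and saline-LPS, 0.115 to 0.578 for LPS-saline and saline-saline and 0.156 to 0.363 for LPS-LPS and LPS-saline. By a rule that each pair exceeds 0.1, same-numbered libraries count as pairs in these 3 comparisons. The correlations were 0.0122 to 0.355 for saline-LPS and saline-saline and -0.000375 to 0.39 for LPS-LPS and saline-saline, which the rule leaves unpaired, and the best match of a library had the same number for 9 of 16. No 2 libraries of a group were duplicates.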

Additional observations from a re-analysis of the deposited data

Results flagged for a closer look

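Tsc22d3 in saline-saline replicate 3 stood apart from its group, at 100.5 CPM against 81.6 to 83.5 CPM in the other 3 mice. The gap took 0.9 of the range of the group, above Dixon's critical value of 0.829 for 4 samples. Groups of 4 were tested for each of the 10 genes, 40 in all, and chance alone marks about 1 in 20 groups. The same mouse had the highest Sgk1 (135.7 CPM), Errfi1 (41.5 CPM), Fkbp5 (45.3 CPM), Plin4 (2.80 CPM) and Sult1a1 (8.76 CPM) of its group. Without it, the averaged prenatal fold change of Tsc22d3 was -0.30 with an adjusted p of 0.00292 from edgeR.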

How the results depend on the processing

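Of 2210 log2 fold changes of the 10 genes under alternatives, 2135 kept their side of the threshold, 27 came past it and 48 dropped below it. A sign changed in 90 of them, none called. Counts of the 10 genes called moved as follows. For averaged prenatal LPS, with 5 called, 3 to 5 were called when 1 library was left out (3 without LPS-saline replicate 1), 0 in libraries under 1 CPM of Gabra6, 2 in those at 1 CPM or more, and 1 without LPS-LPS replicates 1 and 3 and saline-LPS replicate 1 together, an alternative chosen after seeing the data. For LPS-LPS against saline-LPS, with 1 called, DESeq2 and the replicate block each called 3, the cerebellar covariate 2, the libraries at 1 CPM or more of Gabra6 2, and GC and length correction, the libraries under 1 CPM, the fit of the compared groups alone and the 3 libraries left out each 0; without 1 library there were 0 to 1. For LPS-LPS against saline-saline, with 2 called, GC and length correction and the 3 libraries left out each gave 1, the cerebellar covariate 4, either Gabra6 class 0, and leaving out 1 library 1 to 3. For LPS-saline against saline-saline, with 0 called, DESeq2, no filter, the replicate block, the cerebellar covariate, the fit of the compared groups alone and the 3 libraries left out each gave 2, and leaving out 1 library gave 0 to 2. In the other 4 comparisons the count was 0 under every alternative run. The Gabra6 classes and the left-out libraries have fewer samples. Under 1 CPM of Gabra6 LPS-LPS held 1 library, and at 1 CPM or more saline-saline held 1. The other causes were not tested.

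The replicate block, paired as described, changed no other call of the 10 genes. Over all genes, averaged prenatal LPS called 1476, against 700 to 1645 without 1 library, 2792 with the cerebellar covariate, 2495 with the replicate block, 2279 with DESeq2, 638 with GC and length correction, 1118 with the block and that correction together, 742 in libraries at 1 CPM or more of Gabra6, 13 in those under 1 CPM and 197 without the 3 libraries. It called 917 and 736 without LPS-LPS replicates 1 and 3, 700 without LPS-saline replicate 1, and 931 and 846 without saline-saline replicates 2 and 4. LPS-LPS against saline-saline called 1238 (297 to 1981 without 1 library, 5 to 2326 over the other alternatives), LPS-LPS against saline-LPS 115 (22 to 126, and 5 to 856) and LPS-saline against saline-saline 34 (7 to 391, and 2 to 479). Plin4, with 35 to 134 counts per library, was the gene most limited by depth.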
